A study of Mus musculus with 5 samples.

Results

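Islet endocrine cells, the hormone-secreting cells of the pancreas, were picked out of a normal mouse pancreas and an early KIC pancreatic tumour by their transcripts. A cell barcode was a member if at least 5% of its unique molecular identifiers (UMIs, 1 per captured transcript) came from the 5 hormone genes Ins1, Ins2, Gcg, Sst and Ppy. It also needed at least 1 UMI of the secretory granule genes Chga, Chgb or Pcsk1n, under 30% of UMIs from 7 acinar enzyme genes and no UMI of the leukocyte gene Ptprc. The rule found 192 members among 5915 kept barcodes of both libraries, where kept means at least 200 genes and at most 20% mitochondrial UMIs. The series has 5 libraries and 10718 kept barcodes. Early KIC held 169 members among 3529 kept barcodes (4.79%, 95% exact binomial interval 4.11 to 5.55%), and the normal pancreas held 23 among 2386 (0.964%, 0.612 to 1.44%). Members were thus chosen by their hormone, granin, acinar and Ptprc counts, and values of these genes are given as a description, with no test.

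The early KIC library came from a tumour taken at 40 days of age and the normal library from a pancreas taken at 60 days, both untreated and on a mixed C57BL/6 and FVB background. The labels name KIC only as a model of early invasive pancreatic cancer. The alleles and the Cre driver behind that name are not spelled out there, and whether the islet cells sequenced here carried them was not tested. Each group was 1 library, and the labels do not say how many animals it held, so no spread between animals is known, no test between the groups was possible, and age, animal, dissociation and disease cannot be told apart. All intervals below are exact at 95% and cover counting error only.

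Beta cells make insulin from Ins1 and Ins2, which are separate genes in the mouse, and release it when glucose rises. Alpha cells make glucagon from Gcg, delta cells make somatostatin, which restrains both neighbours, and the cells named PP or gamma cells make pancreatic polypeptide. Prohormones are cut by convertases such as those encoded by Pcsk1 and Pcsk2, inside dense granules that also hold the granins.

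The 250 bases before the annotated start of 5 genes are shown because their products separate the classes described here. They are RefSeq sequences on build GRCm38.p6, written 5′ to 3′ on the strand of the gene. Capitals mark matches on either strand to CATCTG, a form of the E box bound by helix-loop-helix factors such as NEUROD1, to TAATG, a core bound by homeodomain factors, or to TGACGT, the core of the cyclic AMP response element.
Ins1: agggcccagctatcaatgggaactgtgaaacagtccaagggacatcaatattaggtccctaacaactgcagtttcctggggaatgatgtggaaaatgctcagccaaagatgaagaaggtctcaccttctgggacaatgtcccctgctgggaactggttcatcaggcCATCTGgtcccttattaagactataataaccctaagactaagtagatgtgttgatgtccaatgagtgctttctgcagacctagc
Iapp: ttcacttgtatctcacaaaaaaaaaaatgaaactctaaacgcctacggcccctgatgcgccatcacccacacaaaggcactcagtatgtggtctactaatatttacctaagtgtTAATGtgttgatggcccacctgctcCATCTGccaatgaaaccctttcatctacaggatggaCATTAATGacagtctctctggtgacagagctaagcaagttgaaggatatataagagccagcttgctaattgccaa
Gcg: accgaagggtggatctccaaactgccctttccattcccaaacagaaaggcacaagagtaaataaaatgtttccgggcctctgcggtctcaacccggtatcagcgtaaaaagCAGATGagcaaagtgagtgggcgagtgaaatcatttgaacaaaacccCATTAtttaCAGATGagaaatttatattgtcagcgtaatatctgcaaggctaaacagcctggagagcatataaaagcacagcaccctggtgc
Sst: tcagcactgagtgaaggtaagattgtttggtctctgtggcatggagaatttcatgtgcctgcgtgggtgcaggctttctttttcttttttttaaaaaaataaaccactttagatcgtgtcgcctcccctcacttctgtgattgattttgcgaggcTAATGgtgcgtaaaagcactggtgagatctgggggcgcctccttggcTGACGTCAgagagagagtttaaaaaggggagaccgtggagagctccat
Ppy: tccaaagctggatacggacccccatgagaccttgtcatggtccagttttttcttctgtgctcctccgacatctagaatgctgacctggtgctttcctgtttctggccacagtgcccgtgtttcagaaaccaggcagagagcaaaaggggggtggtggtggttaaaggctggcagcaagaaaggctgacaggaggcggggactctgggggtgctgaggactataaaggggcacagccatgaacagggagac
The windows lie at chr19:52264047-52264296 on the plus strand for Ins1, chr6:142298175-142298424 on the plus strand for Iapp, chr2:62483654-62483903 on the minus strand for Gcg, chr16:23890845-23891094 on the minus strand for Sst and chr11:102101320-102101569 on the minus strand for Ppy. Ins2 was asked for and is named only, so 5 of 6 genes matched. The Ins1 window held CATCTG starting 84 bases before the gene, and the Gcg window held 2 copies on the opposite strand. In the Sst window, TGACGT matched on both strands in overlapping positions, 48 and 46 bases before the start. The Ppy window held none of the 3 words. Iapp held 1 CATCTG and 3 TAATG matches, of which 2 overlap. Among 32851 RefSeq windows of the same length, 14.4% held CATCTG, 23.9% held TAATG and 6.47% held TGACGT on at least 1 strand. A match is a run of letters and not a measured binding site.

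Members were sorted by the hormone with most UMIs, Ins1 and Ins2 counting together as insulin. Early KIC gave 81 glucagon cells (47.9% of members), 46 insulin cells (27.2%, interval 20.7 to 34.6%), 32 somatostatin cells (18.9%) and 10 pancreatic polypeptide cells (5.92%). The normal pancreas gave 7 glucagon cells (30.4%), 11 insulin cells (47.8%, interval 26.8 to 69.4%), 5 somatostatin cells (21.7%) and 0 pancreatic polypeptide cells. The intervals of the insulin share overlap, and its direction turned under 2 settings that remove mostly other classes of early KIC. Among members with at least 10000 UMIs, insulin cells were 39 of 41 (95.1%) in early KIC and 11 of 16 (68.8%) in the normal pancreas. Without members whose second hormone was at least 1% of hormone UMIs, they were 42 of 52 (80.8%) in early KIC and 11 of 17 (64.7%) in the normal pancreas. Both settings were chosen after seeing the data. The first left 2 of 81 glucagon and 0 of 32 somatostatin cells of early KIC, and the second left 9 and 1. Those classes had median depths of 3271 and 2333.5 UMIs, and insulin was the second hormone in 41 of the 81 glucagon cells. Neither setting can therefore decide the direction, and the part of free insulin RNA was not tested. The late libraries held next to none by the same rule: 0 in late KIC, 0 in late KPC and 1 glucagon barcode in late KPfC, with 258 Gcg UMIs among 3494.

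Members and other barcodes came close at the threshold in early KIC and were further apart in the normal pancreas. The lowest member of early KIC had 5.49% hormone UMIs and the highest barcode below the threshold 4.88%, while the normal pancreas had 6.60% and 2.99%. Of 176 early KIC barcodes past the hormone share, 1 lacked a granin UMI and 6 held Ptprc. Of 27 in the normal pancreas, 2 were over the acinar limit and 2 held Ptprc, with 2 Ptprc UMIs between them. Summed over these 4 normal barcodes, Gcg made up 98.5% of hormone UMIs. They are not counted in the class shares above. No member barcode was shared between libraries, although 9 kept barcodes of early KIC and normal pancreas had the same sequence. Xist, transcribed in females, was detected in 166 of 169 early KIC members and 20 of 23 normal members, and Y-linked transcripts in 0 and 4 members, 1 of which held both. The normal library thus held male and female transcripts, which its labels do not mention.

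Depth differed with class and library. Insulin cells had a median of 18834 UMIs in early KIC and 34962 in the normal pancreas, glucagon cells 3271 and 6999, and somatostatin cells 2333.5 and 8234. The 10 pancreatic polypeptide cells of early KIC had a median of 4151. Free hormone RNA, read from kept barcodes with a hormone share under 5%, made up 0.460% of UMIs in early KIC and 0.0762% in the normal pancreas.

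Hormones took most of the transcripts of insulin cells and less in the other classes. Insulin cells of early KIC had 23.9% Ins1 and 49.6% Ins2 UMIs, and those of the normal pancreas 23.6% and 46.6%. Ins1 made up 32.5% of insulin UMIs in early KIC (32.4 to 32.7%) and 33.6% in the normal pancreas (33.5 to 33.8%). Single cells ranged from 23.4 to 40.1% in early KIC and from 27.5 to 37.0% in the normal pancreas, so the cells of both libraries overlap. In glucagon cells Gcg was 18.9% of UMIs in early KIC and 33.3% in the normal pancreas. In somatostatin cells Sst was 11.6% in early KIC and 14.1% in the normal pancreas. In the pancreatic polypeptide cells Ppy was 16.1% and Gcg 10.6%. These shares were used by the rule and carry no test.

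**Figure D1:**
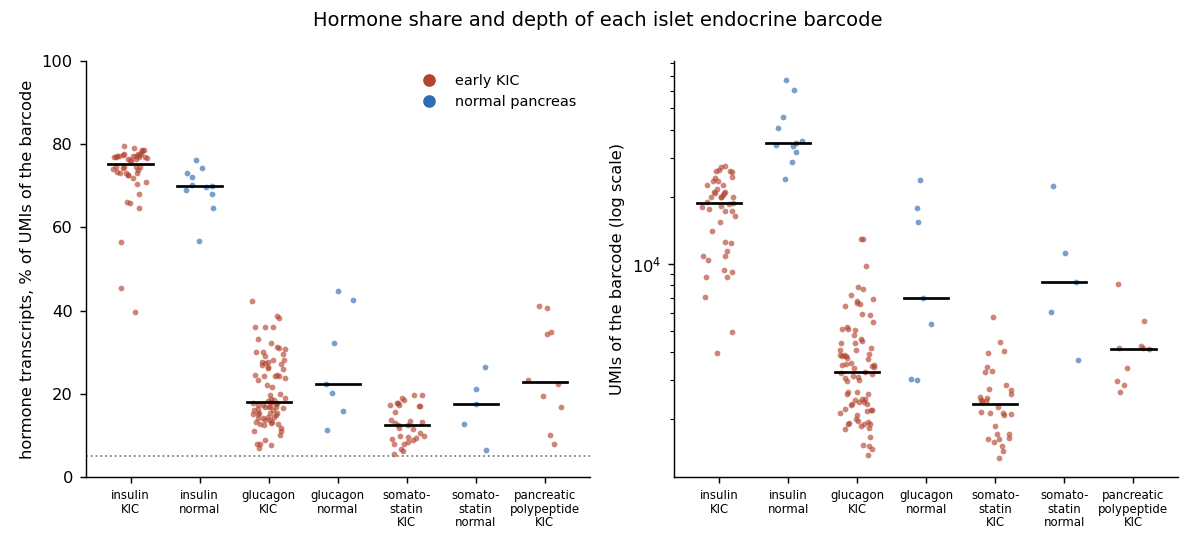
Left, hormone transcripts as a percentage of the UMIs of each member barcode, and right, UMIs of each barcode on a log scale, by class, with early KIC (red) left of normal pancreas (blue). Points are barcodes, black bars are medians, and the dotted line is the 5% of the rule. Insulin cells sit near 75.3% in early KIC and 69.9% in the normal pancreas, and normal cells have more UMIs in each class shared by both libraries.

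Endocrine identity was read from Pcsk2, a gene that the rule did not use. Other such genes, among them Pcsk1 and Scg2, differed between the classes and are given below. Levels are given as CPM, the usual depth-scaled count, taken here over the UMIs outside the 5 hormones and a list of acinar secretory genes, summed over the cells of a class. Pcsk2, the convertase found in all islet cell types, had 5331 CPM in insulin cells, 7561 in glucagon cells, 2393 in somatostatin cells and 5512 in pancreatic polypeptide cells of early KIC, against 16.2 CPM in other barcodes of that library. In the normal pancreas Pcsk2 had 4894, 7662 and 3075 CPM in insulin, glucagon and somatostatin cells, against 7.79 in other barcodes. Every one of the 192 members held a Pcsk2 UMI.

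Iapp, which encodes amylin, the peptide released together with insulin, was the most abundant of the beta cell genes read here. It had 128073 CPM in insulin cells of early KIC and 145673 in those of the normal pancreas. Glucagon cells had 3362 CPM in early KIC and 4399 in the normal pancreas. Somatostatin cells lay between, with 30863 CPM in early KIC and 60756 in the normal pancreas, and all 32 and all 5 of them held Iapp UMIs. G6pc2, the islet glucose-6-phosphatase subunit, was seen in all 46 insulin cells of early KIC and all 11 of the normal pancreas. It had 3 UMIs in the 81 glucagon cells of early KIC and 0 in the 32 somatostatin cells. Ucn3, a marker of mature beta cells in the mouse, had 141 UMIs in insulin cells of early KIC and 111 in those of the normal pancreas, with 1 UMI over all other members. Mafa, a mature beta cell factor, had 0 UMIs in every class of both libraries. By counting error alone this allows up to 15.1 CPM in insulin cells of early KIC and 24.3 CPM in those of the normal pancreas. Whether Mafa transcripts were captured and counted at all was not tested, so the 0 is not read as absence.

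Regulators of the alpha and delta cells were sparse. Irx2, an alpha cell factor, had 9 UMIs in glucagon cells of early KIC and 4 in those of the normal pancreas, and 1 in the other classes, in a pancreatic polypeptide cell. Hhex, the factor that maintains delta cells, had 227 CPM in somatostatin cells of early KIC and 641 in those of the normal pancreas. Rbp4, a retinol carrier abundant in mouse delta cells, had 9874 and 8904 CPM there.

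**Figure D2:**
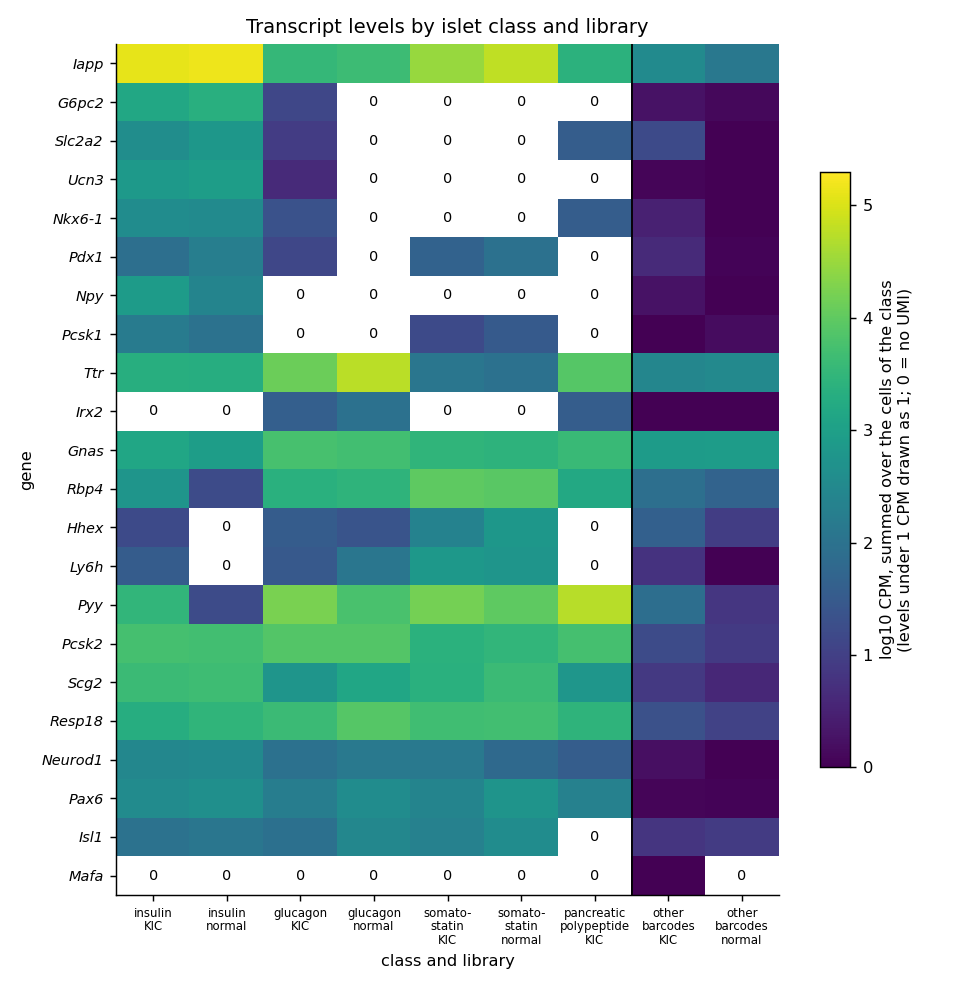
Colour gives log10 CPM of islet genes (rows) summed over the cells of each class and library (columns), with early KIC left of normal pancreas and the remaining kept barcodes at the right. A 0 marks genes without a UMI. Iapp is brightest in insulin cells, Ttr in glucagon cells, Rbp4 in somatostatin cells and Pyy in pancreatic polypeptide cells, and Mafa is at 0 in all 7 islet columns.

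Insulin cells could be compared between the libraries, since both had at least 10. Of 2171 genes with at least 20 UMIs over both groups, 177 were at least 2-fold higher in early KIC (8.15% of genes measured) and 121 at least 2-fold lower (5.57%), with a median log2 ratio of -0.04. The ratio of a gene is that of its CPM, early KIC over normal pancreas. Few were far from that line: the interval lay wholly beyond 2-fold for 53 of the 177 and 5 of the 121. For 115 of the 177 and 39 of the 121, the level in other barcodes of early KIC was above that in the insulin cells themselves. The share over all 2171 genes was not computed.

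Genes of granins and prohormone processing were within 2-fold in 9 of 9 measured, with a median log2 ratio of -0.18, and 1873 of all 2171 genes were within 2-fold as well. Pcsk2 had 5331 CPM in early KIC and 4894 in the normal pancreas, a ratio of 1.09 (0.985 to 1.21). Pcsk1, the convertase that starts proinsulin cleavage, had 162 CPM in early KIC and 97.2 in the normal pancreas, with an interval of 0.833 to 3.54. The neuroendocrine chaperone gene Scg5 was lower, 1706 CPM in early KIC and 3176 in the normal pancreas, 1.86-fold (1.61 to 2.16). All 9 endocrine transcription factors and all 18 mitochondrial ATP synthesis genes measured were within 2-fold, with medians of 0.15 and 0.02. Neurod1 had 288 CPM in early KIC and 324 in the normal pancreas, and Pax6 358 and 446. Nkx6-1, which maintains beta cells, had 384 CPM in early KIC and 340 in the normal pancreas. Of 2 beta cell transcription factors measured, 1 was at least 2-fold lower, with a median of -0.47. That was Pdx1, which drives insulin transcription, with 17 UMIs (85.8 CPM) in early KIC and 23 UMIs (186 CPM) in the normal pancreas, 2.17-fold lower with an interval of 1.11 to 4.33.

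Genes of glucose sensing and beta cell maturation lay mostly below 1. Of 19 measured, 1 was at least 2-fold higher, 3 at least 2-fold lower and 15 within, with a median log2 ratio of -0.54 beside -0.04 for all genes. Trpm5, a channel that shapes glucose-induced calcium waves, had 207 CPM in early KIC and 502 in the normal pancreas, 2.43-fold lower (1.61 to 3.69). Its 41 and 62 UMIs become few when every cell is thinned to 1000 UMIs. The log2 ratio of 0.12 in that setting therefore cannot decide the direction. Thinned to 3960 UMIs a cell, Trpm5 kept 12 UMIs in 46 cells of early KIC and 9 UMIs in 11 cells of the normal pancreas. Prlr, the prolactin receptor through which beta cells expand in pregnancy, had 318 CPM in early KIC and 729 in the normal pancreas, 2.29-fold lower (1.64 to 3.22). Slc2a2, the main glucose transporter of rodent beta cells, had 394 CPM in early KIC and 648 in the normal pancreas. Slc30a8, the zinc transporter of insulin granules, had 651 CPM in early KIC and 1029 in the normal pancreas, and G6pc2 had 1529 and 2228. The third gene past 2-fold was Gipr, an incretin receptor, with only 8 UMIs in early KIC and 12 in the normal pancreas and an interval that includes 1. Abcc8, the sulfonylurea receptor, had 283 CPM in early KIC and 251 in the normal pancreas.

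The one higher gene of that list was Npy, which encodes neuropeptide Y and is high in immature mouse beta cells. It had 828 CPM in insulin cells of early KIC and 251 in those of the normal pancreas, 3.30-fold (2.23 to 5.01). In early KIC 21 of 46 insulin cells held a Npy UMI, with up to 39 UMIs in a cell. In the normal pancreas all 31 UMIs came from 1 of 11 cells. In 1 random draw that thinned each cell to 3960 UMIs, 13 of 46 cells of early KIC and 0 of 11 of the normal pancreas still held one. The normal cell with 31 UMIs lost all of them in that draw, so the 0 does not mean that normal insulin cells lacked Npy. No glucagon, somatostatin or pancreatic polypeptide cell held a Npy UMI, and in other barcodes the level was 1.85 CPM in early KIC and 0.760 in the normal pancreas. The normal level rests on that single cell.

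Genes that stood well above other barcodes were also taken alone. In both libraries 150 measured genes had at least 10 times the level of other barcodes. Of these, 3 were at least 2-fold higher (Npy, the synaptic vesicle gene Sv2a and the cadherin gene Cdh2) and 26 at least 2-fold lower. The other 121 were within, and the median log2 ratio was -0.34. Over all 2171 genes the shares were 8.15% higher and 5.57% lower. This filter kept 3 of the 177 higher genes and 26 of the 121 lower ones. The split and the median therefore depend on the filter and cannot decide the balance of changes. Several of the 26, such as Gipr and Mdm1, had counting intervals that include 1. Among the lower ones, Defb1, a defensin gene, had 141 CPM in early KIC and 535 in the normal pancreas, 3.78-fold lower (2.40 to 6.12). Prss53, a serine protease gene, had 384 and 948 CPM, 2.47-fold lower (1.84 to 3.34), although its locus overlaps other genes and the counting of strand is not given. Cox6a2, a subunit of cytochrome oxidase, had 116 CPM in early KIC and 340 in the normal pancreas. Snap25, a core protein of granule fusion, had 126 CPM in early KIC and 275 in the normal pancreas, 2.18-fold lower (1.26 to 3.82). Further genes among the 12 named for the size of their decrease were Txnip, Rgs2, Tmsb15b2, Cited2, Ywhaq and Peg3, whose lower levels were between 1.95-fold for Peg3 and 3.49-fold for Txnip. Txnip, a glucose-induced inhibitor of thioredoxin, had 85.8 CPM in early KIC and 300 in the normal pancreas, and it was also lower in other barcodes, 97.0 against 192 CPM.

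Of 23 genes of endoplasmic reticulum stress, 3 were at least 2-fold higher, beside 8.15% of all genes, 0 were lower and 20 within, with a median log2 ratio of 0.24. The 3 were Ddit3, which encodes CHOP, with 177 CPM in early KIC and 48.6 in the normal pancreas, Hyou1 with 257 and 105, and Ppp1r15a with 111 and 24.3. The chaperone Hspa5, a main target of the unfolded protein response, had 873 CPM in early KIC and 818 in the normal pancreas, a ratio of 1.07 (0.830 to 1.38). Ddit3 and Ppp1r15a were also present in other barcodes of early KIC, at 134 and 339 CPM. Among 12 immediate early and dissociation stress genes, 9 were higher by 2-fold or more and 1 was lower, and the median was 1.27. Junb had 697 CPM in early KIC and 211 in the normal pancreas, and Egr1 had 530 and 162. For all 9, other barcodes of early KIC had more than 50% of the level of its insulin cells, such as 2338 CPM for Junb. The lower one was the heat shock gene Hspa1a, with 55.5 CPM in early KIC and 275 in the normal pancreas, 4.96-fold lower (2.46 to 10.9). The part of free RNA and of tissue dissociation in these differences was not tested.

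The largest increases were in transcripts of other cell types or other islet classes. Reg3b, a lectin gene of the inflamed exocrine pancreas, had 914 CPM in insulin cells of early KIC and 8.10 in those of the normal pancreas, while other barcodes had 1830 and 205. Reg2, Lyz2, Ifitm3, Spp1, Ccl7, Sparc, Apoe, Col3a1 and Cxcl2 also belong to the 12, and each had a higher level in other barcodes of early KIC than in its insulin cells. All 5 Reg genes, all 5 fibroblast genes and all 4 macrophage genes measured were at least 2-fold higher. The fibroblast list made up 0.0375% of UMIs in insulin cells of early KIC and 0.00777% in those of the normal pancreas, against 1.09% and 0.450% in other barcodes. The macrophage list made up 0.0418% and 0.00640%, against 1.15% and 0.209% in other barcodes. Their part in the counts was not tested.

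Pyy and Rbp4, the other two of the 12, came mostly from a few cells. Pyy, which encodes peptide YY, had 617 UMIs (3115 CPM) in insulin cells of early KIC and 2 (16.2 CPM) in those of the normal pancreas. Of the 617, 581 lay in 4 cells whose second hormone was at least 1% of hormone UMIs. Without these cells the level was 216 CPM. For Rbp4, 95 of 116 UMIs lay in the same 4 cells. The second hormone reached 7.11% of hormone UMIs in 1 of them, and whether each is 1 cell or 2 cells in a droplet was not tested.

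**Figure D3:**
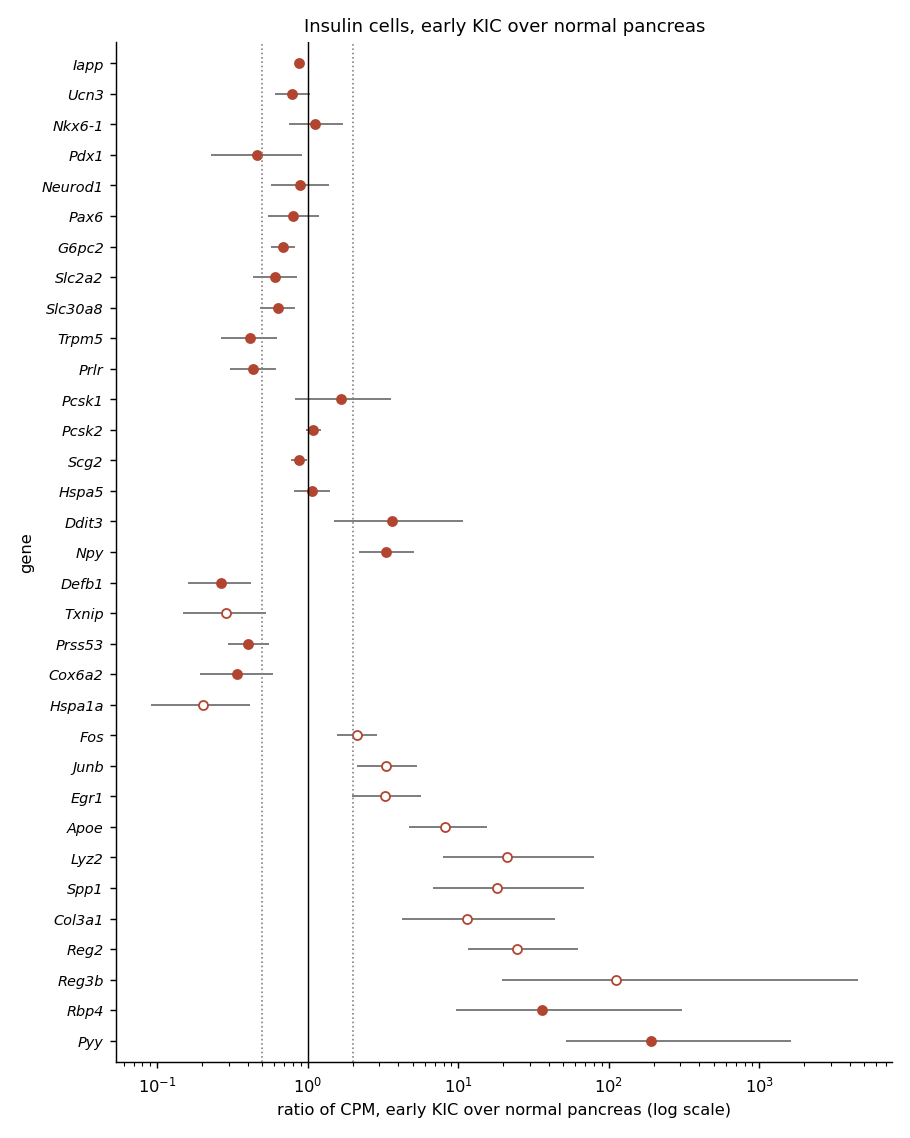
Ratio of CPM in insulin cells, early KIC (46 cells) over normal pancreas (11 cells), on a log scale, with exact 95% counting intervals as lines and dotted lines at 2-fold. Open circles mark genes whose level in other barcodes of early KIC was above that in its insulin cells. Identity genes lie near or left of 1, Defb1 at 0.264 and Npy at 3.30, and the ratios above 5 belong to open circles apart from Rbp4 and Pyy.

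With all members pooled, 505 of 4431 genes were at least 2-fold higher in early KIC (11.4%) and 324 at least 2-fold lower (7.31%). The class mix differed between the libraries, and its part in the pooled values was not tested. Of 22 beta cell maturation genes measured, 12 were at least 2-fold lower. Hspa1a, a heat shock gene at 34.6 CPM in early KIC and 665 in the normal pancreas, was 19.2-fold lower (11.7 to 33.4). It was lower in early KIC in each of the 3 classes shared by both libraries, with 13.1 and 1111 CPM in glucagon cells and 45.4 and 1601 CPM in somatostatin cells. In the normal pancreas its level ran from 0 to 4550 CPM between single members, and 13 of 23 held it.

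Glucagon cells of the normal pancreas numbered 7 and somatostatin cells 5, too few for ratios, so their levels are set side by side. Ttr, which encodes transthyretin and is high in mouse alpha cells, had 13122 CPM (12657 to 13601) in glucagon cells of early KIC and 57748 (55480 to 60085) in those of the normal pancreas. Single cells had from 406 to 169601 CPM, with a median of 6395, in early KIC, and from 11663 to 145576, with a median of 32067, in the normal pancreas. The ranges overlap. Pyy was the other way, 17514 CPM in glucagon cells of early KIC and 5959 in those of the normal pancreas. In somatostatin cells Pyy had 15522 CPM in early KIC and 9736 in the normal pancreas. Txnip was low in early KIC in glucagon cells too, 43.8 CPM against 544 in the normal pancreas.

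Glucagon cells of early KIC were set against insulin cells of the same library, which share age and preparation. Of 2726 genes measured, 317 were at least 2-fold higher in glucagon cells (11.6%) and 475 at least 2-fold lower (17.4%), with a median log2 ratio of -0.20. With CPM of all UMIs, hormones included, the median became 1.40 and the split 1891 higher and 62 lower, because hormones take 74.1% of UMIs in insulin cells and 22.3% in glucagon cells. The ratios given here are outside hormones and are to be read against -0.20.

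Peptides and processing enzymes separated both classes. Of 5 other islet peptides measured, Pyy was higher and 4 lower in glucagon cells. Pyy had 17514 CPM in glucagon cells and 3115 in insulin cells. Iapp had 3362 and 128073 CPM, 38.1-fold lower (35.5 to 41.0). Pcsk1 had 0 UMIs in 81 glucagon cells and 32 in 46 insulin cells, which makes it at least 12.3-fold lower against a floor of 3 counts. Its partner Pcsk2, which cuts proglucagon to glucagon, had 7561 CPM in glucagon cells and 5331 in insulin cells, a ratio of 1.42 (1.31 to 1.53). Pam, the amidating enzyme, had 1468 CPM in glucagon cells and 429 in insulin cells, 3.42-fold (2.69 to 4.39). The granin gene Scg2 had 579 CPM in glucagon cells and 4038 in insulin cells, 6.98-fold lower (5.80 to 8.46).

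Most measured beta cell maturation genes were lower in glucagon cells, and most alpha cell genes higher. Of 16 measured genes of glucose sensing and maturation, 12 were at least 2-fold lower and 4 within, with a median of -3.95. Ucn3 had 1 UMI in glucagon cells and 141 in insulin cells, G6pc2 3 and 303, Slc2a2 2 and 78, and Prlr 1 and 63. Prss53 and Npy had 0 UMIs in glucagon cells and 76 and 164 in insulin cells. The ATP-sensitive potassium channel subunit Abcc8 had 302 CPM in glucagon cells and 283 in insulin cells, a ratio of 1.07 (0.741 to 1.55). Of 8 measured alpha cell genes 6 were at least 2-fold higher, with a median of 1.80. Ttr had 13122 CPM in glucagon cells and 2065 in insulin cells, 6.36-fold (5.73 to 7.07). Smarca1, a chromatin remodeller gene, was 5.90-fold higher (2.30 to 19.3). Gnas, the stimulatory G protein subunit that raises cyclic AMP, had 5785 CPM in glucagon cells and 1343 in insulin cells.

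Transcription factors common to islet cells were lower in glucagon cells on this scale. Of 8 measured, 5 were at least 2-fold lower, with a median of -1.30 that turned to 0.30 with CPM of all UMIs. Neurod1 had 96.4 CPM in glucagon cells and 288 in insulin cells, and Pax6 175 and 358, and both ratios changed sign with all UMIs. Mlxipl, the glucose-responsive factor ChREBP, had 21.9 CPM in glucagon cells and 217 in insulin cells. Nkx6-1 had 5 UMIs in glucagon cells and 76 in insulin cells. Isl1 had 92.0 CPM in glucagon cells and 101 in insulin cells, a ratio of 0.912 (0.470 to 1.77).

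Genes of the secretory load also lay lower in glucagon cells on the scale outside hormones. Of 22 endoplasmic reticulum stress genes, 9 were at least 2-fold lower and 1 higher, with a median of -0.89. With CPM of all UMIs the median of all genes rose from -0.20 to 1.40. The same change of denominator shifts these ratios upward, by more than their median lies below 0. Sdf2l1, a chaperone cofactor gene, had 57.0 CPM in glucagon cells and 449 in insulin cells, 7.88-fold lower (4.38 to 15.4). Immediate early and dissociation stress genes were higher, 9 of 13 at least 2-fold, with a median of 1.32, and 8 of the 9 had more than 50% of that level in other barcodes. Among the 12 genes named for their size were Egr4 with 443 CPM in glucagon cells and 15.1 in insulin cells, Nr4a2 with 281 and 10.1, Atf3 with 526 and 65.6 and Gadd45b with 732 and 95.9. Gria2, a glutamate receptor subunit known in alpha cells, had 320 CPM in glucagon cells and 25.2 in insulin cells, 12.7-fold (5.19 to 40.2). Pappa2, a protease of growth factor binding proteins, had 276 and 15.1 CPM. Both were at most 1.35 CPM in other barcodes, while Atf3 and Gadd45b had 420 and 381 CPM there. All 4 haemoglobin genes were higher in glucagon cells, and 1603 of their 1792 haemoglobin UMIs lay in a single barcode.

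**Figure D4:**
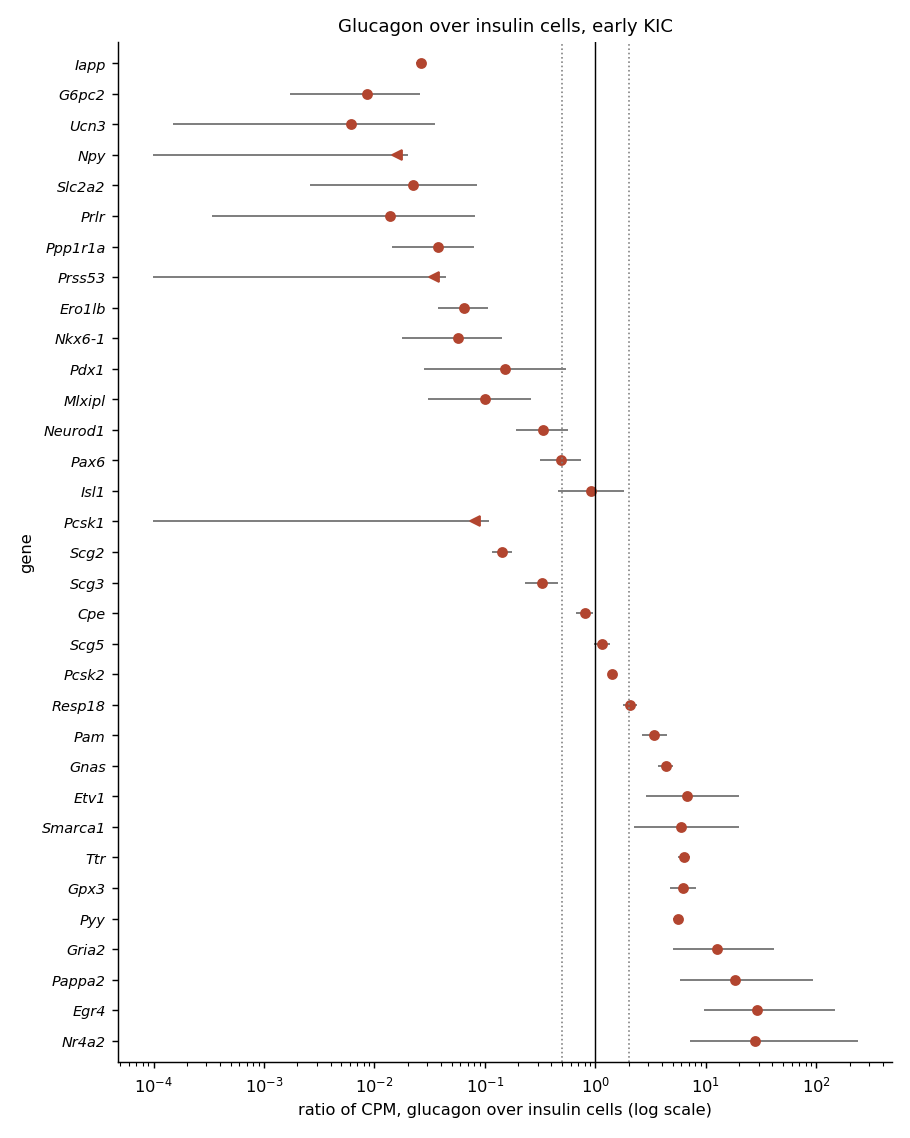
Ratio of CPM in glucagon cells (81) over insulin cells (46) of early KIC on a log scale, with exact 95% counting intervals and dotted lines at 2-fold. Left-pointing triangles mark genes without a UMI in glucagon cells, drawn at the floor of 3 counts with lines running to the left edge. Ucn3 and G6pc2 lie furthest left, and Egr4 and Nr4a2 furthest right.

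Gcg and Ppy were found together in many barcodes of early KIC. In 91 glucagon and pancreatic polypeptide cells, Ppy made up under 1% of the Gcg and Ppy UMIs in 38, from 1 to 10% in 18, from 10 to 90% in 34 and at least 90% in 1. The median depth was 4115.5 UMIs in the 34 mixed barcodes and 3020 in the 38 below 1%. Among the 10 pancreatic polypeptide cells, 9 had glucagon as a second hormone at 10% or more of hormone UMIs, and in the other one Ppy was 96.3% of both. In other barcodes of early KIC, Gcg was 0.0415% and Ppy 0.0114% of UMIs. In the 7 normal glucagon cells Ppy was under 1% in 6 and 8.28% in 1. Ppy was found in somatostatin cells as well. In early KIC 10 of 32 had a second hormone at 10% or more of hormone UMIs, Ppy in each, at up to 41.1%. In the normal pancreas 2 of 5 did, again with Ppy. No doublet caller was run, and whether a mixed barcode is 1 cell was not tested.

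**Figure D5:**
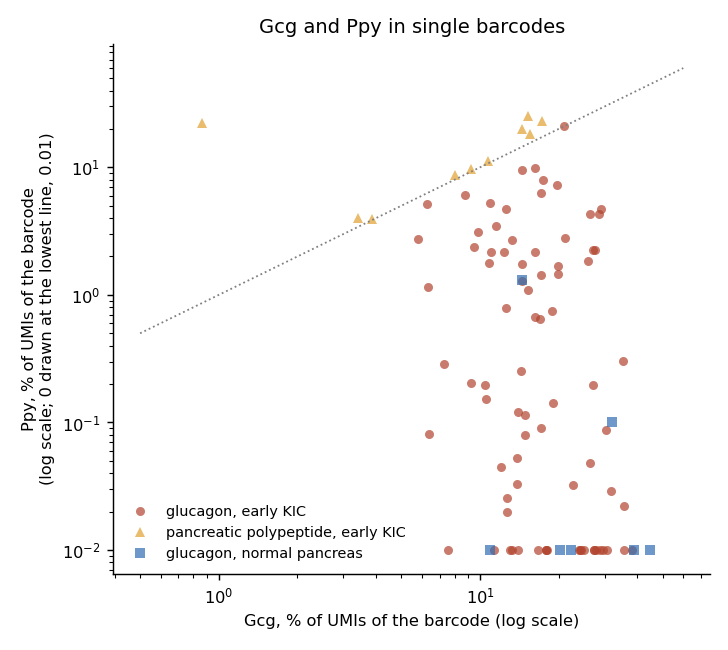
Gcg (horizontal) and Ppy (vertical) as percentages of the UMIs of each barcode, both on log scales, for glucagon and pancreatic polypeptide cells of early KIC and glucagon cells of the normal pancreas. Barcodes without Ppy are drawn at 0.01%, and the dotted line marks equal shares. The early KIC points fill the range between no Ppy and the line, and only 1 barcode lies far to its left.

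Pyy was highest in the pancreatic polypeptide cells, and whether it tracks Ppy from cell to cell was not tested. Pyy and Ppy sit side by side on chromosome 11, on the same strand with 5356 bases between them, and both belong to the neuropeptide Y family. Pyy had 54429 CPM in pancreatic polypeptide cells and 17514 in glucagon cells of early KIC, 3.11-fold (2.93 to 3.30). All 10 pancreatic polypeptide cells and 76 of 81 glucagon cells held it. Of 1486 genes measured between these classes, 116 were at least 2-fold higher (7.81%), 221 lower (14.9%) and 1149 within. Of 7 alpha cell genes measured, 6 were within 2-fold, a share near that of all genes, with a median of 0.38. Ttr had 8050 CPM in pancreatic polypeptide cells and 13122 in glucagon cells, and Pcsk2 5512 and 7561. Pam was 2.70-fold lower in pancreatic polypeptide cells (1.61 to 4.88).

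Somatostatin cells of early KIC were set against both insulin and glucagon cells. Against insulin cells, 205 of 1832 genes (11.2%) were higher by 2-fold or more and 297 (16.2%) were lower. Against glucagon cells, 225 of 1821 were higher (12.4%) and 216 lower (11.9%). Medians were -0.09 and 0.09, and with CPM of all UMIs the first became 1.67. Rbp4 had 9874 CPM in somatostatin cells, 2340 in glucagon cells and 586 in insulin cells, and was present in all 32 somatostatin cells. Ly6h had 666 CPM in somatostatin cells, 30.7 in glucagon cells and 35.3 in insulin cells, and Fam159b had 1030, 30.7 and 95.9. Both were at most 6.06 CPM in other barcodes. Cd24a, a surface glycoprotein gene, had 1045 CPM in somatostatin cells, 105 in glucagon cells and 90.9 in insulin cells.

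Iapp was 9.18-fold higher in somatostatin than in glucagon cells (8.45 to 9.99) and 4.15-fold lower than in insulin cells (3.97 to 4.34). Most other beta cell genes were low: 13 of 16 measured genes of glucose sensing and maturation were at least 2-fold lower than in insulin cells, and G6pc2, Ero1lb, Ucn3, Slc2a2, Slc30a8, Nkx6-1 and Npy had 0 UMIs in 32 cells. At their depth this allows up to 45.4 CPM. Slc30a8 was present in glucagon cells at 394 CPM, which makes it at least 8.68-fold lower in somatostatin cells. Ttr had 8 UMIs, 108-fold lower than in glucagon cells (54.9 to 251). Pcsk2 had 2393 CPM in somatostatin cells, 3.16-fold lower than in glucagon cells (2.68 to 3.74) and 2.23-fold lower than in insulin cells (1.88 to 2.65), where the log2 ratio turned to 0.61 with CPM of all UMIs.

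Ddit3 had 954 CPM in somatostatin cells, 302 in glucagon cells and 177 in insulin cells, and Herpud1, an endoplasmic reticulum degradation gene, had 803, 241 and 207. Other barcodes of early KIC had 134 and 160 CPM. Of 20 endoplasmic reticulum stress genes measured against glucagon cells, 8 were higher by 2-fold or more and 1 was lower, the median was 0.90, and for 4 of the 8 other barcodes had more than 50% of the level. Against insulin cells 3 of 21 were higher and 2 lower, with a median of -0.12, shares near or below those of all genes. Immediate early and dissociation stress genes were at least 2-fold higher than in insulin cells in 11 of 13, with a median of 2.28, and for 6 of the 11 other barcodes had more than 50% of the level. In normal somatostatin cells Ddit3 had 6 UMIs (192 CPM, 70.5 to 418).

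A single somatostatin barcode held many ghrelin transcripts. It had 64 Ghrl UMIs among 2086 (3.07%) beside 267 Sst UMIs (12.8%), and 0 Gcg, 0 Ppy and 2 Ins2 UMIs. Over the other 168 early KIC members Ghrl had 1 UMI, and over the 23 normal members 0. Ghrelin is made by the epsilon cells of the fetal islet, and in other barcodes of early KIC it had 3 UMIs over 3353. Ghrl was not among the hormones of the rule. The barcode held 1 UMI of the secretory granule genes of the rule, and whether it is 1 cell was not tested.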

How the data were processed

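Single cells of 5 mouse pancreas libraries were captured with 10x Genomics 3' v2 chemistry, and deposited values are whole UMI counts per gene and barcode for 27998 genes, which the authors obtained from Cell Ranger 2.1.1 and GRCm38 per the submitters' processing notes. The use of strand in counting was not stated. The library totals were 8313769 UMIs for early KIC and 14768787 for the normal pancreas. From those counts, members were selected by the stated rule and UMIs summed per class and library. CPM used UMIs outside 5 hormones and 37 acinar secretory genes found of 39 listed. Genes with at least 20 UMIs over both groups were measured, and a ratio of at least 2 called, in classes with at least 10 cells. Intervals (95%) were Clopper-Pearson for shares, Poisson for levels and binomial for ratios. A count of 0 was bounded at 3 counts. Single genes named were list members with at least 20 UMIs, plus 12 per direction by the interval bound nearest 1 with at least 50 UMIs. The 32 lists held 394 genes, 387 in the table. Members and lists were chosen with earlier results of these data known. No doublet caller was run, and doublets were addressed only by leaving out cells with a second hormone. Results were recomputed under 11 other settings of the rule, denominator and count minimum, and under 2 more chosen later. The code was tested on simulated data and run in Python 3.11.15 with numpy 2.4.6, scipy 1.17.1, pandas 2.3.3 and matplotlib 3.10.9. Some genes are not reported here.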

Additional observations from a re-analysis of the deposited data

How the results depend on the processing

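With 1 library per group no replicate could be left out, and precision is set by cells and UMIs: 11 normal insulin cells and 7 normal glucagon cells limit every comparison with them. No paired analysis was possible because each group had 1 library and the labels number no replicates. Without cells with a second hormone at 10% or more, insulin cells made up 37.1% of early KIC members, 201 genes were at least 2-fold lower over all members, and C3 in somatostatin over glucagon cells turned to -0.34 (log2). In that setting 15 genes named in glucagon over insulin cells, 10 in somatostatin over insulin cells and 8 in somatostatin over glucagon cells also moved beyond their counting intervals. C3 was -0.80 at a hormone share of at least 10%, where 12 genes named in somatostatin over insulin cells and 7 in somatostatin over glucagon cells moved. With CPM of all UMIs, 220 genes were lower in insulin cells and 156 over all members of early KIC, and glucagon over insulin cells gave 1891 higher and 62 lower. On that scale the endocrine factor median turned to 0.30, Neurod1 to 0.023, Pax6 to 0.57, and Pcsk2 in somatostatin over insulin cells to 0.61, which the change of denominator itself shifts. Counts below are higher then lower for insulin cells, all members, and glucagon over insulin cells. Thinning to 1000 UMIs a cell gave 10 and 4, 123 and 71, and 128 and 34, with Trpm5 in insulin cells at 0.12. That thinning removes most UMIs of insulin cells, so it cannot decide the direction of Trpm5. A minimum of 50 UMIs gave 56 and 24, 162 and 85, and 137 and 163. No filter gave 1004 and 1439, 1197 and 1980, and 1362 and 2208, with a median of 0 for other islet peptides. These counts change with the number of genes measured. Chosen after seeing the data, cells with at least 10000 UMIs left 41 early KIC members, 95.1% insulin cells against 68.8% in the normal pancreas, which turns the direction of the insulin share, with 176 genes higher and 154 lower over all members. Leaving out cells with a second hormone at 1% or more, also chosen after seeing the data, left 52 members, 80.8% insulin cells against 64.7% in the normal pancreas, also turned, with 172 higher and 116 lower. Both settings removed mostly the other classes of early KIC, so neither can decide the direction of the insulin share.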

Other observations

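A single glucagon barcode of early KIC held 1603 haemoglobin UMIs, 23.6% of its total. In the other glucagon cells haemoglobin was 0.0623% of UMIs, against 0.0451% in insulin cells. Whether this barcode held a red blood cell was not tested.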
